A study of Mus musculus with 10 samples.

Results

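The genes described here are 9 mouse genes of the cardiac conduction system and of pacemaking: Cntn2, Gja5, Gjc1, Hcn2, Hcn4, Cacna1g, Cacna1h, Tbx3 and Etv1. They were chosen by symbol, through the RefSeq accession that the array files give for each probe, and make up 9 of the 22911 genes that could be named in this way. Their transcripts were read in hearts of C57BL/6N mice, for which the labels name no genotype, treatment, age or sex. Cold buffer was perfused through both chambers, and the hearts were cut into 3 pieces: the septum, the free wall on its right (RV) and the free wall on its left (LV). Total RNA of each piece was read on 1 single-colour Agilent array, giving 4 RV, 3 LV and 3 septum arrays, and the small number of arrays limits the precision of each value.

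The heartbeat starts in the sinoatrial node, passes through the atrioventricular node and the His bundle, whose branches descend along both sides of the septum, and reaches the working muscle through the Purkinje fibres. Nodal cells depolarise by themselves, using the HCN channels of the funny current and T-type calcium channels. Purkinje cells are marked by contactin 2 and by Cx40, a gap junction protein for fast conduction, and T-box factors such as Tbx3 hold the nodal programme in place. These cells are a small fraction of the ventricular wall, so each level below is that of a whole piece of tissue.

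Each level is the log2 signal of a probe relative to the 75th percentile of its array, so that a difference of 1 is a doubling, and levels of different probes were not set against each other. The arrays lay on 2 slides: the arrays numbered 1 and 2 of each region shared slide 1, and those numbered 3 and 4 shared slide 2. Between 53.7% and 64.0% of the spots of an array were well above background, without any saturated spot. All 12 cardiomyocyte marker genes were well above background on every array, with a mean level of 8.07 to 8.40. Of 9 atrial marker genes, Bmp10 was well above background on no array, and the other 8 were well above background on every array. Regions were compared with limma on all 10 arrays, with p-values adjusted over 30234 probes, and "called" means an adjusted p below 0.05. Nothing in the labels says more about the origin of the replicates than that different individuals were used, and the p-values measure the spread between these arrays.

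The 9 members were represented by 16 probes, of which 14 were bright enough to be tested, and each member had at least 1 tested probe. A member is given by its brightest probe, and its other probes are given beside it. That probe was well above background on all 10 arrays for 8 members. The exception was Cntn2, which was well above background on 4 of 4 RV, 1 of 3 LV and 3 of 3 septum arrays.

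The reference holds the promoter of 5 members. The 250 bases before the start of Cntn2, Gja5 and Hcn4 are shown because these 3 members had higher mean levels in the septum than in either free wall and are covered by the reference. The sequences are from RefSeq (mouse build GRCm38.p6) and are written 5′ to 3′ on the strand of the gene. Cntn2 lies at chr1:132542941-132543190 on the minus strand, Gja5 at chr3:97032152-97032401 on the plus strand, and Hcn4 at chr9:58822699-58822948 on the plus strand. Capitals mark matches to the motifs named after the sequences.
Cntn2: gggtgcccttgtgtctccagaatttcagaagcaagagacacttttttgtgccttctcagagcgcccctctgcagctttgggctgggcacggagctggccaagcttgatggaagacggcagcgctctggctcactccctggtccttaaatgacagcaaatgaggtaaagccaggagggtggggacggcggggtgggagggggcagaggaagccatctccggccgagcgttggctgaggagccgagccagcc
Gja5: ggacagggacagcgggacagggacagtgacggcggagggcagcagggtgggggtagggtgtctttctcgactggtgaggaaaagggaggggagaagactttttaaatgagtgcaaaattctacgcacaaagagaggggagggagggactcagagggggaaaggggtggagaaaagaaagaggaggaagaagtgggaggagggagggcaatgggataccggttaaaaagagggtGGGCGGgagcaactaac
Hcn4: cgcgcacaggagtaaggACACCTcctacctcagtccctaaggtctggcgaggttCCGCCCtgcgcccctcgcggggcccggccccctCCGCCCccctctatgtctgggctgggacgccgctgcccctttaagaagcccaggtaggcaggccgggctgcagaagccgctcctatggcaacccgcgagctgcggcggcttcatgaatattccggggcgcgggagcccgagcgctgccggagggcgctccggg

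The motifs were searched on both strands: the T-box core AGGTGT, the NKX2-5 site TNAAGTG, the GATA site AGATAA, the ETS site CCGGAAG, the GC box GGGCGG, the CCAAT box CCAAT and the TATA box TATAAA. Hcn4 held 1 T-box match, 233 bases before the start, and 2 GC boxes, 196 and 163 bases before it, all on the opposite strand. Gja5 held 1 GC box, 17 bases before the start, and the Cntn2 window held no match. Of 32851 promoter windows of the same length, 11.8% held the T-box letters and 32.7% held the GC box. The NKX2-5 letters were found in 10.1%, the GATA letters in 9.99%, the ETS letters in 6.91%, the CCAAT box in 33.8% and the TATA box in 12.4% of them. GC content was 61.2% for Cntn2, 56.4% for Gja5 and 71.2% for Hcn4.

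The comparison of the septum with the free walls concerns the piece that carries the bundle branches. Cntn2, the cell adhesion molecule of Purkinje cells, was the member with the largest difference. Its level in the septum was 4.05-fold higher than in RV. With each LV array set no lower than the faintest signal detected on it, the level was 6.25-fold higher than in LV. Only 1 of 3 LV arrays was well above background. The T-type calcium channel Cacna1g and the Purkinje connexin Gja5 had smaller septal excesses, of 1.51-fold and 1.42-fold, which were not called. All 9 members had a positive difference, with a median of 0.34 log2 units, beside 0.01 over the 14650 genes with a tested probe. Of the 9 members, 1 (Cntn2) was called in this comparison, where 0.119% of all tested probes were called, and 5 had an unadjusted p below 0.05, beside 4.8% of all probes. The order of RV below septum with no overlap was seen for 3 members and 7.82% of all probes.

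The Cntn2 level was -2.58, -2.48, -2.93 and -2.51 on RV arrays 1 to 4. It was -2.92, -3.41 and -4.14 on LV arrays 1 to 3. It was -0.31, -1.06 and -0.45 on septum arrays 1 to 3. Thus each septum array lay above each free wall array, while the RV and LV arrays overlapped. For 3 members (Cntn2, Cacna1g and Hcn4) no septum array overlapped a free wall array and the septum was higher, a pattern seen in 0.562% of all tested probes. In such bulk samples, more cells of a type and more RNA per cell cannot be told apart.

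The Cntn2 level averaged -2.63 ± 0.21 in RV (SD, n = 4), -3.49 ± 0.62 in LV (SD, n = 3) and -0.61 ± 0.40 in the septum (SD, n = 3). The septum exceeded the mean of both walls by 2.45 (SE 0.25, limma adjusted p = 0.00727), a value that takes in the LV signals near background. The RV minus septum difference was -2.02 (SE 0.28, limma adjusted p = 0.00956), a 4.05-fold higher level in the septum, and Cntn2 was the only member called there, where 2.08% of all probes were called. Against LV the measured difference was 2.88 (SE 0.30), with a limma adjusted p of 0.0669. It was 2.64, or 6.25-fold, with each LV array set no lower than the faintest signal of any probe detected on it. That signal is no strict limit for a probe that was not detected, so 6.25-fold is an estimate. The RV minus LV difference was 0.86 (SE 0.28, limma adjusted p = 0.123).

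With the slide as a block, the Cntn2 differences from the septum were called against both walls, with a septum minus LV difference of 2.88 (limma adjusted p = 0.0411). The RV minus LV difference was then 0.91 and also called, with a limma adjusted p of 0.0498. Within slide 1 alone, the septum minus LV difference was 2.48 and the RV minus septum difference was -1.85. Within slide 2 they were 3.69 and -2.27, and no Cntn2 difference was called within a single slide. The call against the mean of both walls was lost without septum array 3 (2.37, limma adjusted p = 0.0562). A second Cntn2 probe was too dim to be tested, being well above background on 2 RV, 0 LV and 1 septum arrays.

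**Figure D1:**
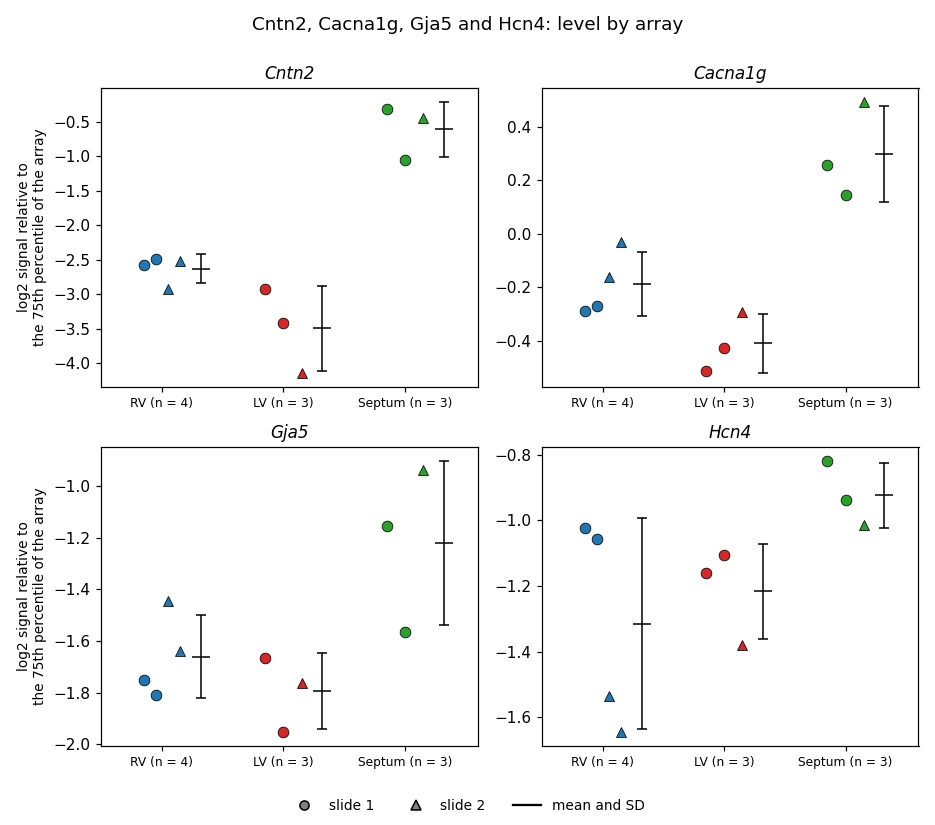
Level of Cntn2, Cacna1g, Gja5 and Hcn4 on each array (y axis: log2 signal relative to the 75th percentile of the array) by region, with circles for slide 1, triangles for slide 2 and bars for the mean and SD of a region. The septum arrays of Cntn2 run from -1.06 to -0.31 and lie above all RV and LV arrays, as do those of Cacna1g and Hcn4, while septum array 2 of Gja5 lies within the RV range.

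Cacna1g encodes Cav3.1, a T-type calcium channel of nodal and Purkinje cells. Its level was -0.29, -0.27, -0.16 and -0.03 on RV arrays 1 to 4, and -0.51, -0.43 and -0.29 on LV arrays 1 to 3. It was 0.26, 0.14 and 0.49 on septum arrays 1 to 3. The septum arrays lay above all others, and each RV array lay above each LV array, although RV array 1 and LV array 3 were nearly level. The latter order was seen for 2 members, Cacna1g and Etv1, and for 8.1% of all probes. Cacna1g was called in the test across the 3 regions (limma adjusted p = 0.0248), as were Cntn2 (0.00433) and Etv1 (0.0300), making 3 of 9 members where 2.78% of all probes were called.

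The Cacna1g level averaged -0.19 ± 0.12 in RV (SD, n = 4), -0.41 ± 0.11 in LV (SD, n = 3) and 0.30 ± 0.18 in the septum (SD, n = 3). The septum minus LV difference was 0.71 (SE 0.11, limma adjusted p = 0.221), and no probe of the array was called in that comparison (0.0% of 30234 by limma). There, 862 probes (2.85%) and 4 members had an unadjusted p below 0.05. An analysis of variance with Tukey correction called 167 of the 30234 probes. Its threshold is unlike that of limma. It needed an F test of the 3 regions adjusted over all probes and a Tukey p not adjusted over probes, both below 0.05. The methods name no adjustment over probes. By that rule 2 of the 9 members, Cntn2 and Cacna1g, were called between septum and LV. The RV minus septum difference was -0.49 (SE 0.11, limma adjusted p = 0.0556), and the excess over the mean of both walls was 0.60 (SE 0.10, limma adjusted p = 0.0890).

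The slide moved the call for Cacna1g but hardly its size. With the slide as a block, the septum exceeded RV by 0.52 (limma adjusted p = 0.00220), LV by 0.71 (0.0383) and the mean of both walls by 0.61 (0.00285). Blocking on the replicate number instead, which leaves RV array 4 without a partner, gave an adjusted p of 0.0118 against RV, 0.128 against LV and 0.0210 against both walls. With the slide block, 0.0463% of all probes were called against LV and 0.87% against both walls, beside 2 and 3 of the 9 members. With the replicate block, 7.12% were called between RV and septum, 0.466% against both walls and 0.0% against LV, beside 3, 2 and 0 members. Within slides 1 and 2 the excess over both walls was 0.58 and 0.69. The other 2 Cacna1g probes also had their highest mean in the septum, with excesses over both walls of 0.71 (limma adjusted p = 0.267) and 0.55 (limma adjusted p = 0.156). On the first of them septum array 2 (-0.56) lay below RV array 3 (-0.54). The RV and LV arrays overlapped on both.

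Gja5 encodes Cx40, a connexin found in Purkinje fibres, the atria and arterial endothelium. Its level was -1.75, -1.81, -1.44 and -1.64 on RV arrays 1 to 4, and -1.67, -1.95 and -1.76 on LV arrays 1 to 3. It was -1.16, -1.57 and -0.94 on septum arrays 1 to 3. Septum array 2 lay among the RV arrays, and all 3 septum arrays lay above the LV arrays, as for 5 of the 9 members and 3.55% of all probes. The excess of the septum over both walls was 0.51 (SE 0.14, limma adjusted p = 0.444) and was called under none of the alternatives. Across the 3 regions Gja5 was called only with a block, at a limma adjusted p of 0.0396 for the slide and 0.0435 for the replicate number; these blocks called 5 members, and 12.7% and 8.83% of all probes. On its second, dimmer probe the septum was again highest, at -2.72 ± 0.29 (SD, n = 3), but LV (-3.03) and RV (-3.12) stood in the opposite order. The 8 arterial endothelium markers had a median septum minus wall difference of -0.06, and none was called. For the 8 tested atrial markers the median was 1.30, with all 8 positive and none called. The part of either tissue in the Gja5 level was not tested.

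Gjc1 encodes Cx45, the low-conductance connexin of the nodes. Its level was 0.78 ± 0.11 in RV (SD, n = 4), 0.66 ± 0.05 in LV (SD, n = 3) and 0.75 ± 0.12 in the septum (SD, n = 3). The arrays of the 3 regions overlapped, and the septum minus wall difference of 0.03 had a 95% interval of -0.15 to 0.21.

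Hcn4 encodes the main channel of the funny current in the sinoatrial node. Its level was -1.02, -1.06, -1.53 and -1.64 on RV arrays 1 to 4, and -1.16, -1.11 and -1.38 on LV arrays 1 to 3. It was -0.82, -0.94 and -1.01 on septum arrays 1 to 3. The septum arrays stood above all others, although septum array 3 and RV array 1 were nearly level. The arrays of slide 2 were the lowest of each region, by 0.31 on average. The excess of the septum over both walls was 0.34 (SE 0.15, 95% interval 0.01 to 0.67) and was not called under any alternative. It was 0.21 within slide 1 and 0.47 within slide 2.

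Hcn2, the other HCN subunit among the members and the one known from working ventricle, had a level of 4.93 ± 0.04 in RV (SD, n = 4), 5.09 ± 0.10 in LV (SD, n = 3) and 5.09 ± 0.17 in the septum (SD, n = 3). Each RV array lay below each LV array, as for 11.1% of all probes, with an RV minus LV difference of -0.16 (SE 0.09, limma adjusted p = 0.377). LV and septum had a difference of -0.01 with a 95% interval of -0.23 to 0.21. Cacna1h, which encodes the T-type channel Cav3.2, was also level, at -0.07 ± 0.20 in RV (SD, n = 4), 0.06 ± 0.19 in LV (SD, n = 3) and 0.05 ± 0.12 in the septum (SD, n = 3). Of its 2 other probes, 1 was tested and differed by at most 0.12 between regions, and 1 was too dim. Whether Cacna1g and Cacna1h differ in their pattern over the regions was not tested.

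**Figure D2:**
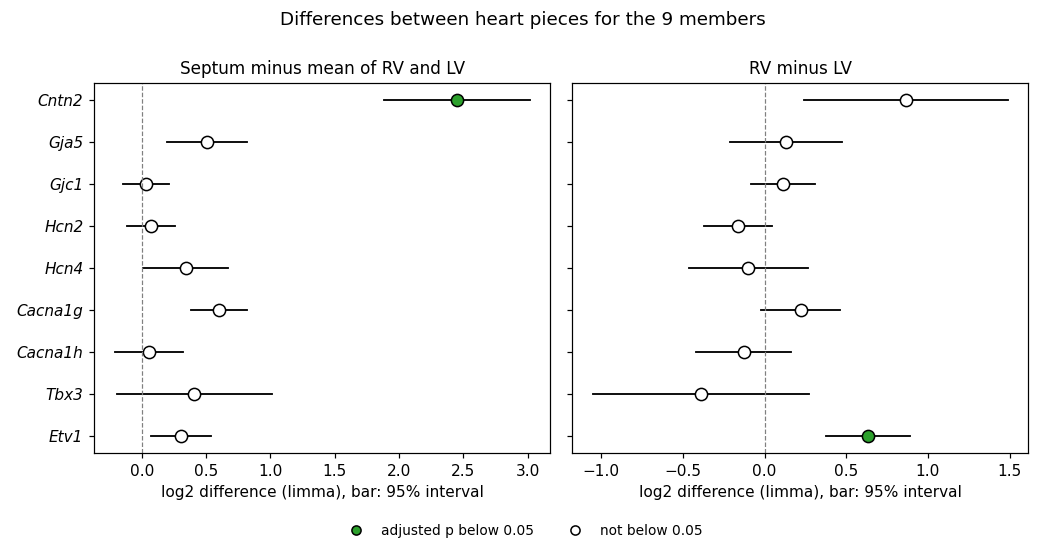
Log2 difference of each member by its brightest probe (points) with the 95% interval of the limma fit (bars), for the septum minus the mean of RV and LV on the left and RV minus LV on the right, with filled points for an adjusted p below 0.05. All 9 differences on the left are above 0 and Cntn2 (2.45) is the one called, while on the right Etv1 (0.63) is called.

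The comparison of both free walls gave another order. Etv1, an ETS factor required for the fast conduction of Purkinje fibres and atrial muscle, was 1.55-fold higher in RV than in LV. It was the 1 member of 9 called there, where 3.86% of all probes were called. The median difference of the members was 0.11, beside -0.05 over all genes. The Etv1 level was 2.14, 2.08, 1.97 and 2.21 on RV arrays 1 to 4, and 1.58, 1.39 and 1.42 on LV arrays 1 to 3. It was 2.13, 1.83 and 2.29 on septum arrays 1 to 3. Each RV array and each septum array lay above each LV array, and the RV and septum arrays overlapped.

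Etv1 averaged 2.10 ± 0.10 in RV (SD, n = 4), 1.46 ± 0.10 in LV (SD, n = 3) and 2.08 ± 0.23 in the septum (SD, n = 3). The RV minus LV difference was 0.63 (SE 0.11, limma adjusted p = 0.0196). The septum minus LV difference was of the same size, 0.62 (SE 0.12), with a limma adjusted p of 0.357, and the RV minus septum difference was 0.01 with a 95% interval of -0.24 to 0.27. The RV call was lost without LV array 2 (0.60, limma adjusted p = 0.0880), without LV array 3 (0.0690) and without RV array 4 (0.0596), and remained with the slide as a block (0.62, 0.00905). Etv1 was not called by limma with median scaling (adjusted p = 0.0739) or no filter (0.0960). The analysis of variance with Tukey correction, its F test adjusted over all probes, did not call it either (larger of the 2 p-values 0.0554). The methods do not name that adjustment. Within slides 1 and 2 the RV minus LV difference was 0.62 and 0.66. Etv1 is also made by neurons; the 8 tested neuronal markers had a median RV minus LV difference of -0.16, and none was called.

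Tbx3, the T-box repressor that keeps nodal and bundle cells from taking on a working muscle programme, varied most with the slide. Its level was 1.29, 1.46, 1.92 and 2.19 on RV arrays 1 to 4, and 1.69, 1.95 and 2.68 on LV arrays 1 to 3. It was 2.09, 2.10 and 2.78 on septum arrays 1 to 3. In each region the slide 2 arrays were the highest, by 0.74 on average, and the regions overlapped. Within each slide, every RV array lay below every septum array and every LV array.

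The RV minus septum difference of Tbx3 was -0.60 (SE 0.29, limma adjusted p = 0.406). It was -0.73 (SE 0.09, limma adjusted p = 0.00373) with the slide as a block and -0.76 (limma adjusted p = 0.00926) with the replicate block. The RV minus LV difference was -0.39 (SE 0.29, limma adjusted p = 0.530), and -0.51 (limma adjusted p = 0.00996) and -0.55 (0.0158) with these blocks. With the slide as a block, the septum exceeded the mean of both walls by 0.47 (limma adjusted p = 0.0499), an excess not called with the replicate block (0.49, 0.0687). Tbx3 was called across the 3 regions with the slide block (0.00519) and with the replicate block (0.0144). The septum minus LV difference of 0.22 did not pass the test in any of these fits. Within slides 1 and 2 the RV minus septum difference was -0.71 and -0.72. A second Tbx3 probe gave the same order of regions. With the slide as a block, 17.6% of all probes were called between RV and LV and 8.74% between RV and septum, beside 3 of 9 members in each. With the replicate block 14.9% of all probes and 2 members, Tbx3 and Etv1, were called between RV and LV.

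**Figure D3:**
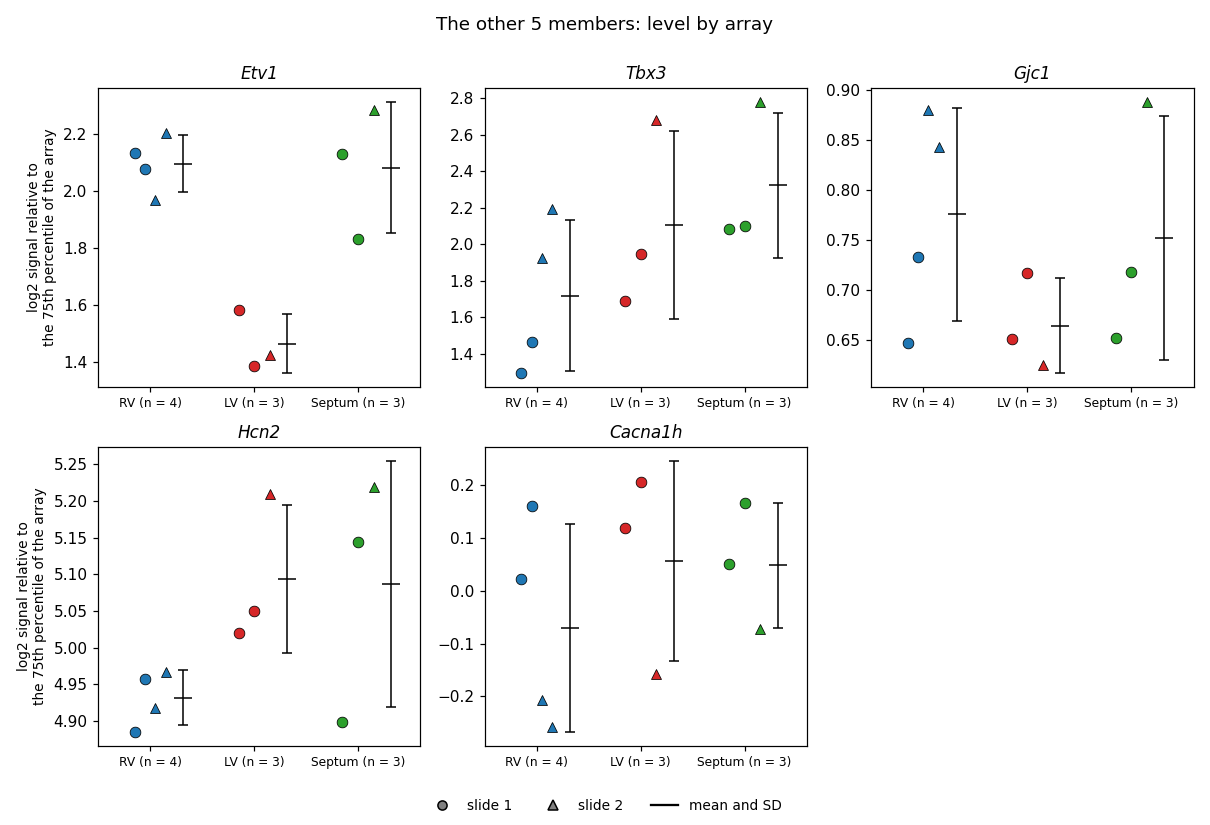
Level of Etv1, Tbx3, Gjc1, Hcn2 and Cacna1h on each array (y axis: log2 signal relative to the 75th percentile of the array) by region, with circles for slide 1, triangles for slide 2 and bars for the mean and SD. All RV and septum arrays of Etv1 (1.83 and above) lie above the LV arrays (1.58 and below), and the slide 2 arrays of Tbx3 are the highest of their regions.

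A list of 35 further conduction genes, of which 31 had a tested probe, was measured beside the members. Between the septum and the mean of both walls, 0 of 31 were called by limma, with a median difference of 0.05, and none was called with the slide as a block either. Between RV and septum, where 2.08% of all probes were called, 1 was higher in the septum and 4 were higher in RV. The septal gene was Cpne5, encoding a copine and known as a Purkinje cell marker, at -0.26, -0.29, -0.70 and -0.79 on RV arrays 1 to 4. It was -0.53, -0.47 and -0.09 on LV arrays 1 to 3, and 1.26, 0.29 and 0.44 on septum arrays 1 to 3. The septum arrays of Cpne5 lay above all others, with an RV minus septum difference of -1.18 (SE 0.24, limma adjusted p = 0.0422). That call was lost when any 1 of the 10 arrays was left out (limma adjusted p 0.0517 to 0.119), and under the replicate block (0.0597).

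Pcp4, a calmodulin-binding protein known from Purkinje fibres and named here after its values were seen, had the largest septal excess of that list. Its level was -0.72, -1.22, -2.97 and -1.76 on RV arrays 1 to 4, and -2.07, -2.72 and -3.70 on LV arrays 1 to 3. It was -0.49, -0.53 and -0.07 on septum arrays 1 to 3. The septum arrays again lay above all others. The septum minus wall difference was 1.88 (SE 0.47), with a limma adjusted p of 0.340, and the RV arrays alone spread from -2.97 to -0.72. Pcp4 was well above background on 4 of 4 RV, 2 of 3 LV and 3 of 3 septum arrays, so this difference takes in an LV signal near background.

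In RV, 5 of the 31 further genes were called higher than in LV and 1 was called lower, where 3.86% of all probes were called. Scn10a, the sodium channel Nav1.8, was 2.51-fold higher (limma adjusted p = 0.0202). A second, dimmer Scn10a probe averaged -3.32 in RV and -3.96 in LV, and its RV and LV arrays overlapped. That probe was well above background on 1 of 3 LV arrays. Id2, a helix-loop-helix factor of the ventricular conduction system, was 2.33-fold higher than in LV (limma adjusted p = 0.000585) and 1.99-fold higher than in the septum (0.000850). Igfbp5, a binding protein of insulin-like growth factors, was 2.21-fold higher than in LV (limma adjusted p = 0.00736) and 1.94-fold higher than in the septum (0.0240). Slit2, a guidance ligand, was 1.75-fold higher than in LV (limma adjusted p = 0.0362) and 2.34-fold higher than in the septum (0.0111). Sema3a, a guidance ligand of sympathetic nerves, was well above background on 4 of 4 RV, 0 of 3 LV and 1 of 3 septum arrays. Its means were -2.88 in RV and -4.70 in LV, and this measured difference was called (limma adjusted p = 0.00268). With each LV array set no lower than the faintest signal detected on it, RV was 1.80-fold higher, a value that was not tested. On 1 LV array Sema3a lay above that faintest signal although it was not well above background, so 1.80-fold is no lower bound. Sema3a passed the filter on dim probes only through RV, the region where it was high. Its calls against LV and septum are therefore set against signals near background. Bves, a cAMP-binding membrane protein of heart muscle, was lower in RV than in LV by a difference of -0.49 (limma adjusted p = 0.0418). Of the 10 fits that left out an array, the call against LV was kept in 1 for Slit2, 3 for Bves, 6 for Scn10a and all 10 for Id2 and Igfbp5. The call against the septum was kept in 5 for Igfbp5, 9 for Slit2 and all 10 for Id2. With its F test adjusted over all probes, the analysis of variance did not call Scn10a or Bves between RV and LV (larger of the 2 p-values 0.102 for each).

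Other tissues differed between the same pieces. The 8 tested atrial markers had a mean level of 1.31 to 2.62 on the RV arrays, 1.14 to 2.16 on the LV arrays and 2.002 to 4.17 on the septum arrays, and none was called between the septum and either wall. Their median septum minus wall difference was 1.30, in the direction of the excess of Cntn2. Septum array 1 held the highest levels, with 6.90 for the atrial light chain Myl7 and 6.21 for sarcolipin, Sln. On septum array 2 they were 4.60 and 4.14, also above all free wall arrays. On septum array 3, Myl7 was 2.69 and Sln was 0.49, both within the range of the free wall arrays (1.14 to 4.50 and -0.22 to 3.50). On that array Cntn2 was -0.45, Cacna1g 0.49 and Gja5 -0.94. The latter 2 are the highest levels of these genes on any array. The part of atrial tissue in these levels was not tested.

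Markers of Schwann cells and glia, for which 7 of 10 genes were tested, had a mean level of -1.71 to -1.25 in the septum, -1.34 to -1.14 in LV and -0.90 to -0.61 in RV. Their median septum minus wall difference of -0.49 was opposite in sign to that of Cntn2, which is also made by neurons and glia. The 8 of 13 neuronal markers that were tested had mean levels of -0.16 to -0.05 in the septum, -0.29 to -0.14 in LV and -0.30 to -0.19 in RV. Their median septum minus wall difference was 0.12, with 6 of 8 positive and none called, the same sign as that of Cntn2, and the septum arrays lay above all RV arrays. Between RV and LV, 6 of 10 adipocyte markers were called higher in RV, where 3.86% of all probes were called. Their mean level was 1.22 to 1.59 in RV, -1.56 to -0.71 in LV and -0.20 to 0.74 in the septum. Between RV and septum, 7 of 8 mesothelial markers were called higher in RV, where 2.08% of all probes were called. The mean mesothelial level was -0.20 to 1.15 in RV, -1.45 to -0.66 in LV and -3.72 to -1.45 in the septum. The 10 smooth muscle and pericyte markers had a median septum minus wall difference of -0.0016. The part of these tissues in the differences of the members was not tested.

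**Figure D4:**
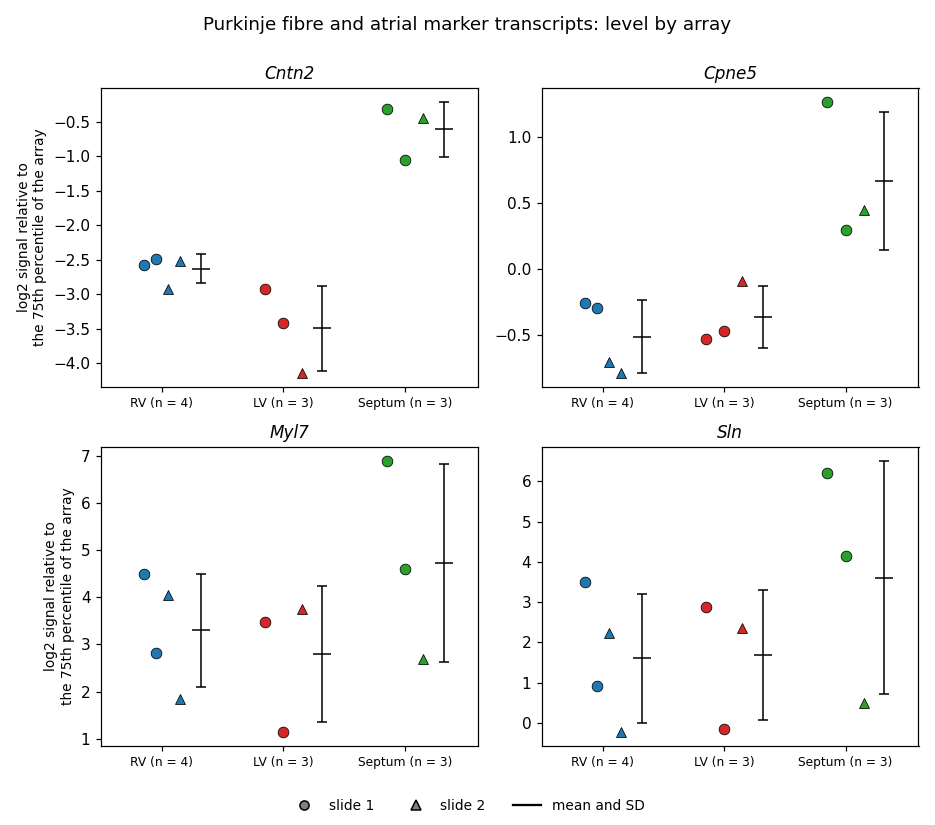
Level of Cntn2 and Cpne5, both known from Purkinje fibres, and of the atrial transcripts Myl7 and Sln on each array (y axis: log2 signal relative to the 75th percentile of the array) by region, with circles for slide 1, triangles for slide 2 and bars for the mean and SD. Cntn2 is above all free wall arrays on each septum array. Myl7 and Sln are above them on septum arrays 1 (6.90 and 6.21) and 2 (4.60 and 4.14). On septum array 3 (triangle), Myl7 (2.69) and Sln (0.49) lie within the free wall range. The part of atrial tissue in the Cntn2 level was not tested.

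Of the 5 members that were highest in the septum, Cntn2, Cacna1g and Gja5 had the most similar patterns over the 10 arrays. After the mean of each slide was subtracted, Pearson's r was 0.97 between Cntn2 and Cacna1g, 0.92 between Cntn2 and Gja5, 0.86 between Gja5 and Cacna1g and 0.79 between Hcn4 and Cacna1g. For Tbx3, the fifth of them, it was 0.42 with Cntn2, 0.41 with Gja5, 0.53 with Cacna1g and 0.65 with Hcn4. For Etv1 and Cntn2 it was 0.72, and for Hcn2 and Cntn2 it was 0.08. These values describe 10 arrays that share regions, slides and replicate numbers, and genes grouped for a high level in one region correlate by that choice, so no test is given.

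Among the 13633 other genes with a probe well above background on all arrays, the patterns most like that of Gja5 were those of Thbs4 (r = 0.93), a matrix thrombospondin, Col22a1 (0.92), a collagen of tissue junctions, and Cacna1g (0.88). For Cacna1g they were Col22a1 (0.88), Gja5 (0.88) and Prg4 (0.86), which encodes lubricin. Among 13634 genes, those most like Cntn2 were Pvalb (0.90), the calcium buffer parvalbumin, Sfrp5 (0.88), a secreted Wnt antagonist, and St3gal4 (0.87), a sialyltransferase. The leading gene for Hcn4 was Tnni1 (0.96), the slow skeletal troponin I of the fetal heart, followed by an unnamed transcript and Etv4 (0.94). For Etv1 they were Cbs, Wif1 and Pdgfrl, at 0.90 to 0.91. Wif1, a secreted Wnt inhibitor, had mean levels of 1.78 in RV, -1.56 in LV and 0.996 in the septum. For Tbx3 (Fbxo45, Usp22, Inpp4a), Hcn2 (Yeats4, Fdx1, Usp5) and Cacna1h (Smc5, BC147527, Psg29) r was 0.96 to 0.99, and for Gjc1 (Eprn, Sh3bp1, Trim46) it was 0.89 to 0.92. Each r is over the same 10 arrays, whose slides also set part of these patterns.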

How the data were processed

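Total RNA of RV, LV and septum pieces was labelled with Cy3 and hybridised to Agilent SurePrint mouse arrays, 1 sample per array. The region and number of each array come from its title. The authors made the deposited intensity values with Feature Extraction (version 11.5.1.1), which subtracted background, removed trends within the array and set the flags for spots above background, saturated spots and outliers. The deposited table of log2 values was made by the authors with GeneSpring, per the methods, and equals the values below apart from a constant per array.

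After removal of controls and flagged outliers (56 to 128 spots an array), log2 processed signals were averaged per probe and scaled by subtracting the array's 75th percentile. A probe was tested if all arrays of some region showed it well above background (30234 of 56605 probes, 53.4%), and 32994 (58.3%) were named through RefSeq tables of GRCm38.p6, which is not the build of the array files. A model with 1 mean per region was fitted to the 10 arrays (limma 3.58.1, R 4.3.3) with Benjamini-Hochberg adjustment over all tested probes, two-sided. The fit was tested on simulated data.

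All 9 members, the further conduction genes that were called, and per member the 3 genes of highest Pearson r are named. The members, the lists and these rules were chosen with earlier results of these data known. Alternatives were other scalings (quantile, median, 75th percentile of the probes detected on all arrays), normexp background correction with an offset of 50 on the median spot signal, the authors' table, both filters, the slide or the replicate number as a block, each slide alone, leaving out each array, and the methods' analysis of variance with Tukey correction. Same-numbered arrays of different regions deviated from their region means together (r 0.41 to 0.73 over 9 pairs), as did other pairs on the same slide (0.09 to 0.64 over 8 pairs), and the series text names different individuals, so whether same-numbered pieces share a heart is not settled. The main model has no block, and values with the replicate block are given where they change a call.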

Additional observations from a re-analysis of the deposited data

How the results depend on the processing

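The number of members called depended most on the slide and on the filter. Across the 3 regions it was 3, and 5 with the slide or the replicate number as a block, 1 with median scaling, with no filter or within either slide, and 1 to 3 when an array was left out. Between RV and LV it was 1, and 3 with the slide block, 2 with the replicate block, 0 with median scaling, no filter, the analysis of variance or a single slide, and 0 to 1 with an array left out. Between RV and septum it was 1, and 3 with either block, 2 by the analysis of variance, 0 within a slide and 0 when only probes detected on all arrays were kept, which drops Cntn2. It was 1 whichever array was left out. Between septum and LV it was 0, and 1 with quantile normalization or normexp, 2 with the slide block or the analysis of variance, and 0 to 1 with an array left out. For the septum against both walls it was 1, and 3 with the slide block, 2 with the replicate block, 0 with no filter, with the strict filter or within a slide, and 0 to 1 with an array left out. The analysis of variance gives no value for that comparison. The causes were not tested beyond the smaller number of arrays within a slide and the probes dropped by the strict filter.

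Of 779 recomputed member differences, 719 kept direction and call, 28 changed sign, 18 gained a call and 14 lost one. All 28 belong to differences that were not called. Gjc1 became -0.0263 within slide 2 and -0.0272 to 0.0913 with an array left out (RV minus septum). Its septum minus wall difference became -0.0214 with median scaling, -0.000850 with normexp, -0.00225 within slide 1 and -0.0354 to 0.0831 with an array left out. Hcn2 (septum minus LV) became 0.0307 with quantile normalization, 0.0152 with the percentile of detected probes, 0.00922 within slide 2 and -0.0719 to 0.0880 with an array left out. Hcn4 (RV minus LV) became 0.0943 within slide 1, 0.0118 with the replicate block and -0.195 to 0.0118 with an array left out. Cacna1h became 0.0130 with the percentile of detected probes, 0.0846 within slide 2 and -0.115 to 0.0669 with an array left out (septum minus LV), and -0.0191 within slide 1 and -0.00374 to 0.115 with an array left out (septum minus walls). Tbx3 (septum minus LV) ran from -0.0121 to 0.504 with an array left out. Etv1 (RV minus septum) became -0.0148 with normexp, -0.200 within slide 2, -0.0219 with the replicate block and -0.111 to 0.116 with an array left out.

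Over all probes, the number called ran from 269 to 5331 between RV and LV, 112 to 2643 between RV and septum, 0 to 167 between septum and LV, 0 to 263 for the septum against both walls and 178 to 3826 across the regions, beside 1167, 628, 0, 36 and 842. The blocks changed no other member call than those given. Of 281 recomputed differences of the further conduction genes, 65 lost the call and none changed sign. Signal near background limits Cntn2 and Pcp4 in LV and Sema3a in LV and septum.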
